A study of Mus musculus with 4 samples.

Results

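The genes described here are 10 genes of the Toll-like receptor (TLR) system of B cells, of 31053 genes in the authors' feature table. They were taken by symbol: the receptors Tlr9, Tlr7, Tlr4, and Tlr1, the LPS cofactors Ly96 and Cd14, the receptor Cd180 with its partner Ly86, the adaptor Myd88, and the trafficking factor Unc93b1. B cells were isolated from the spleens of WT C57BL/6 mice by negative selection and profiled by scRNA-Seq on the 10x Genomics platform, with 2 samples of Bregs-CpG, kept for 3 days with CpG B ODN 1668, and 2 samples of Bregs-TLR, made from the same kind of culture by giving LPS, PMA, and ionomycin in the last 5 hours. All 4 samples had therefore been exposed to CpG, and no sample of untreated B cells was analysed here. The barcodes end in 5, 6, 7, or 8, and each ending stands for 1 library. No ending names a sample, so the libraries were assigned neither to Bregs-CpG nor to Bregs-TLR, and no difference between the cultures was tested. All 6 pairs of libraries were described. The 4 that join library 5 or 6 with library 7 or 8 are often given together, for a reason stated below.

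TLRs are receptors of innate immunity that recognize molecules of microbes. In mouse B cells, TLR9 senses DNA with unmethylated CpG motifs and TLR7 senses single-stranded RNA, both inside endosomes, and UNC93B1 is the membrane protein that carries them there from the endoplasmic reticulum. TLR4 senses LPS at the cell surface through its bound cofactor MD-2, the product of Ly96, while CD14 hands LPS to the complex. RP105, the product of Cd180, resembles TLR4 in its outer part but lacks the signaling domain, and it is held at the surface of B cells by MD-1, the product of Ly86. TLR1 pairs with TLR2 to bind bacterial lipopeptides, and MYD88 is the adaptor through which all of these TLRs signal.

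After cells with fewer than 1000 detected genes or at least 10% mitochondrial UMIs were left out, 18534 cells were kept and 1386 left out. Each UMI stands for 1 captured mRNA molecule. Libraries 5, 6, 7, and 8 held 4196, 4714, 5621, and 4003 of these cells, with 44842982 to 63638158 UMIs per library and 8752 to 10355 UMIs in the median cell. The libraries fell into pairs in their quality measures, since the median mitochondrial share was 7.22% and 7.18% in libraries 5 and 6 against 4.61% and 4.65% in libraries 7 and 8. All 8 B cell markers of a list were detected, at a summed 15274 and 15805 UMIs per 1000000 UMIs of the library (CPM) in libraries 5 and 6 and 8083 and 8054 CPM in libraries 7 and 8. Of 9 macrophage markers 4 had no UMIs, including Lyz2, and the summed level was 3.14 to 4.74 CPM in the 4 libraries. Markers of neutrophils and NK cells were at 0, and those of T cells summed to 0.424 to 0.788 CPM. Between libraries, 29 barcode sequences occurred more than once. Intervals given below are at 95% and cover counting error only, not the spread between mice or cultures.

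The stretch before the start of transcription was available in the RefSeq promoter table (build GRCm38.p6) for 5 of the 10 genes, Tlr1, Tlr9, Cd180, Ly86, and Myd88. Shown are those of 3 receptors that B cells express and that differed between libraries, so that their letters can be compared. Each runs from 250 bases before the start through the first 30 transcribed bases, 280 bases in all, read along the gene's own strand. The stretches are chr9:106222348-106222627 on the plus strand for Tlr9, chr5:64933529-64933808 on the minus strand for Tlr1, and chr13:102693308-102693587 on the plus strand for Cd180. Capitals mark matches to motifs searched on both strands.
Tlr9: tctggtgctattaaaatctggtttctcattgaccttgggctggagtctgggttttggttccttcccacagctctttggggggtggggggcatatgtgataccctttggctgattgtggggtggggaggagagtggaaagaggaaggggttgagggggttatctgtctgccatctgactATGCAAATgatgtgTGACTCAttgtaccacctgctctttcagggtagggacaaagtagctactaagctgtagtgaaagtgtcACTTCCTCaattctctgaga
Tlr1: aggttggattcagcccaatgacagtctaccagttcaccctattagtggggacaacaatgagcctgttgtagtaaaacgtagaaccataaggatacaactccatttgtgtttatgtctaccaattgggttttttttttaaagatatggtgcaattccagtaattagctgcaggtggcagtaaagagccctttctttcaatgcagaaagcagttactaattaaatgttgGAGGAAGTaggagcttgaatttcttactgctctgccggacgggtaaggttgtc
Cd180: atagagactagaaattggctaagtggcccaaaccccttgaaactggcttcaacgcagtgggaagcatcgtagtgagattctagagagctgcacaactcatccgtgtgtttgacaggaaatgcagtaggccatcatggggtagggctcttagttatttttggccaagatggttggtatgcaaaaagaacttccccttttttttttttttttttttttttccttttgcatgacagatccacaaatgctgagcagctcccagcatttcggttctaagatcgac
In Tlr9, the capitals mark, from left to right, the octamer ATGCAAAT, which POU factors such as OCT2 bind, the AP-1 motif TGANTCA, and the PU.1 motif GAGGAAGT read on the opposite strand. Counted from the start site as 0, they lie at positions -72 to -65, -58 to -52, and 10 to 17. In Tlr1, the capitals mark a PU.1 match at positions -23 to -16. The letters of these motifs, the CRE motif TGACGTCA, and the NF-κB consensus were not found in the window of Cd180, nor in those of Ly86 and Myd88. The start sites used for Ly86 (chr13:37345345) and Myd88 (chr9:119340018) lie inside the gene positions given below, so stretches before the outermost start were not fully searched. Of all 32851 promoter windows in the table, 1.74% held the octamer, 7.81% AP-1, 3.20% PU.1, 1.79% CRE, and 4.51% the NF-κB consensus. A match is a match of letters, and binding was not measured.

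Tlr9 (chr9:106222598-106226883, plus strand, GRCm38), the receptor for the CpG given to all cultures, was detected at a low level in every library. It was at 1.76 and 1.55 CPM in libraries 5 and 6, from 79 and 80 UMIs, and at 0.409 and 0.482 CPM in libraries 7 and 8, from 26 and 22 UMIs. Libraries 5 and 6 were thus high and libraries 7 and 8 low, and the intervals of the 2 pairs did not overlap (1.23 CPM or more against 0.729 CPM or less). The level of Tlr9 was 3.22- to 4.31-fold lower in library 7 or 8 than in library 5 or 6. Of all genes with at least 200 UMIs over the 4 libraries, 39.6% were lower in each of these comparisons by any amount, and 13.0% by at least 2-fold. Within the pairs 5 and 6 or 7 and 8 the log2 ratios were -0.19 (interval -0.65 to 0.28) and 0.24 (-0.65 to 1.11), so that neighbors in this order were not told apart by counting error.

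Tlr7 (chrX:167304929-167330558, minus strand), the endosomal RNA sensor, was not a target of any agonist in these cultures. Its levels were 9.83, 9.26, 2.07, and 1.73 CPM in libraries 5, 6, 7, and 8, from 441, 478, 132, and 79 UMIs. The order was that of Tlr9, with libraries 5 and 6 high and libraries 7 and 8 low. The difference was 4.46- to 5.69-fold over the 4 pairs that join library 5 or 6 with library 7 or 8. These 4 pairs are given together because earlier results of these data had shown that libraries 5 and 6, and libraries 7 and 8, resemble each other.

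Unc93b1 (chr19:3935186-3949340, plus strand), on which TLR9 and TLR7 depend to reach the endosome, was the gene with the widest difference among the members with at least 1000 UMIs. It was at 417 and 447 CPM in libraries 5 and 6, from 18699 and 23093 UMIs, and at 51.7 and 47.6 CPM in libraries 7 and 8, from 3291 and 2174 UMIs. The level was 8.06-fold lower in library 7 than in library 5 and 9.40-fold lower in library 8 than in library 6. The log2 ratios of the 4 pairs lay between -3.01 (interval -3.07 to -2.96) and -3.23 (-3.30 to -3.17). Within pairs the differences were much smaller, at 0.10 (0.07 to 0.13) for library 6 over 5 and -0.12 (-0.20 to -0.04) for library 8 over 7, though both intervals left out 0.

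Tlr4 (chr4:66827584-66930284, plus strand), the LPS receptor, rested on few UMIs, as Tlr9 did. Libraries 5 and 6 held 82 and 112 UMIs (1.83 and 2.17 CPM), and libraries 7 and 8 held 17 and 11 UMIs (0.267 and 0.241 CPM). Of all genes with at least 200 UMIs over the 4 libraries, 13.0% were lower by at least 2-fold in library 7 and in 8 than in 5 and in 6. For Tlr4, libraries 5 and 6 were again high and did not overlap with libraries 7 and 8 in their intervals. The level was 6.85- to 9.01-fold lower in library 7 or 8 than in library 5 or 6, with wide intervals on the log2 scale, from -3.62 to -2.01 for library 7 over 5 and from -4.21 to -2.28 for library 8 over 6. Macrophages also express Tlr4, and among the 81, 109, 17, and 11 cells with a Tlr4 UMI, 2, 3, 2, and 0 cells had a UMI of a macrophage marker. In libraries 5 and 6 this was 2.47% and 2.75% of the Tlr4 cells, beside 3.96% and 4.75% of all cells. In library 7 it was 11.8% of the Tlr4 cells, from 2 cells, beside 3.38% of all cells, and in library 8 it was 0 of 11 cells, beside 3.75% of all cells. With every cell holding a marker of another cell type left out, the log2 ratios of libraries 7 and 8 over 5 were -2.86 and -2.81. With all kept cells they were -2.78 and -2.92. The part of macrophages in the Tlr4 level was not tested. In libraries 5, 6, 7, and 8, 53, 69, 8, and 7 of the Tlr4 cells had a Cd180 UMI. These cells were not thinned, and the share of all unthinned cells with Cd180 is given below. Whether both genes were seen together more often than depth alone gives was not tested.

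Ly96 (chr1:16688051-16709611, plus strand), the gene of MD-2, without which TLR4 does not respond to LPS, did not share the pattern of its receptor. Its levels in libraries 5, 6, 7, and 8 were 10.4, 9.02, 12.3, and 12.5 CPM, from 467, 466, 780, and 573 UMIs. Libraries 7 and 8 were the higher ones, by 1.18- to 1.39-fold, and the log2 ratios of 0.24 to 0.48 compare with 0.07 to 0.17 for the median gene in the same 4 pairs. This direction held under each scaling tried (TMM, DESeq2 size factors, a denominator without mitochondrial, ribosomal protein, and immunoglobulin genes, and UMIs per cell), but against library 5 it turned to -0.18 and -0.24 when only cells under 5% mitochondrial UMIs were used. Under TMM, DESeq2 size factors, and the reduced denominator, the ratios were smaller than by total UMIs. The gap between libraries 5 and 6, a log2 ratio of -0.21 (-0.39 to -0.02), was close in size to the smallest of the differences by total UMIs.

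Cd14 (chr18, minus strand), the LPS-binding coreceptor of myeloid cells, was at the limit of detection. Libraries 5, 6, and 8 held no UMI and library 7 held 1, in 1 of 5621 cells. A count of 0 allows a level of up to 0.0669, 0.0581, and 0.0657 CPM in libraries 5, 6, and 8, taking 3 counts as the limit. No difference in Cd14 was detectable at this depth and no fold change is given.

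Cd180 (chr13:102693558-102739629, plus strand) and Ly86 (chr13:37345208-37419036, plus strand) encode the 2 chains of the RP105 complex, and both were readily detected. Cd180 was at 88.5, 86.5, 29.5, and 31.1 CPM in libraries 5, 6, 7, and 8, from 1419 to 4466 UMIs per library. Ly86 was at 224, 236, 135, and 135 CPM, from 6182 to 12183 UMIs. Both genes were lower in library 7 or 8 than in library 5 or 6 in all 4 pairs, as were 39.6% of all genes, but to different degrees. Cd180 was 2.78- to 3.00-fold lower in library 7 or 8, whereas Ly86 was 1.65- to 1.75-fold lower and stayed under 2-fold in all 4 pairs. The intervals of the log2 ratios of library 7 over 5, -1.67 to -1.51 for Cd180 and -0.77 to -0.69 for Ly86, did not overlap.

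Tlr1 (chr5:64924679-64933563, minus strand), the partner of TLR2, was at 22.8 and 24.4 CPM in libraries 5 and 6 and at 9.90 and 9.81 CPM in libraries 7 and 8, from 1021, 1262, 630, and 448 UMIs. It was 2.30- to 2.49-fold lower in library 7 or 8 than in library 5 or 6. Within pairs it differed by less than the counting error, with log2 ratios of 0.10 (-0.02 to 0.22) and -0.01 (-0.19 to 0.16). With cells under 5% mitochondrial UMIs, its log2 ratios in the 4 pairs lay between -0.61 and -0.86, under 2-fold. Only 143 and 207 such cells were left in libraries 5 and 6, with 21 and 35 Tlr1 UMIs. Counting error and a dependence on the cells used cannot be told apart from so few UMIs.

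Myd88 (chr9:119335934-119341411, minus strand), the adaptor shared by these receptors, was nearly level across libraries, at 14.1, 15.0, 13.0, and 12.9 CPM from 588 to 829 UMIs. It was 1.08- to 1.17-fold lower in library 7 or 8, and the intervals against library 5 included 0 (-0.26 to 0.04 and -0.29 to 0.04), while those against library 6 did not (-0.35 to -0.06 and -0.38 to -0.07). Against library 5 the direction turned, to log2 ratios of 0.14 and 0.15, with cells under 5% mitochondrial UMIs. Library 5 kept only 143 such cells, so these ratios carry a large counting error. The lowest log2 ratios against library 5 over all settings tried were -0.30 for library 7 and -0.28 for library 8.

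**Figure D1:**
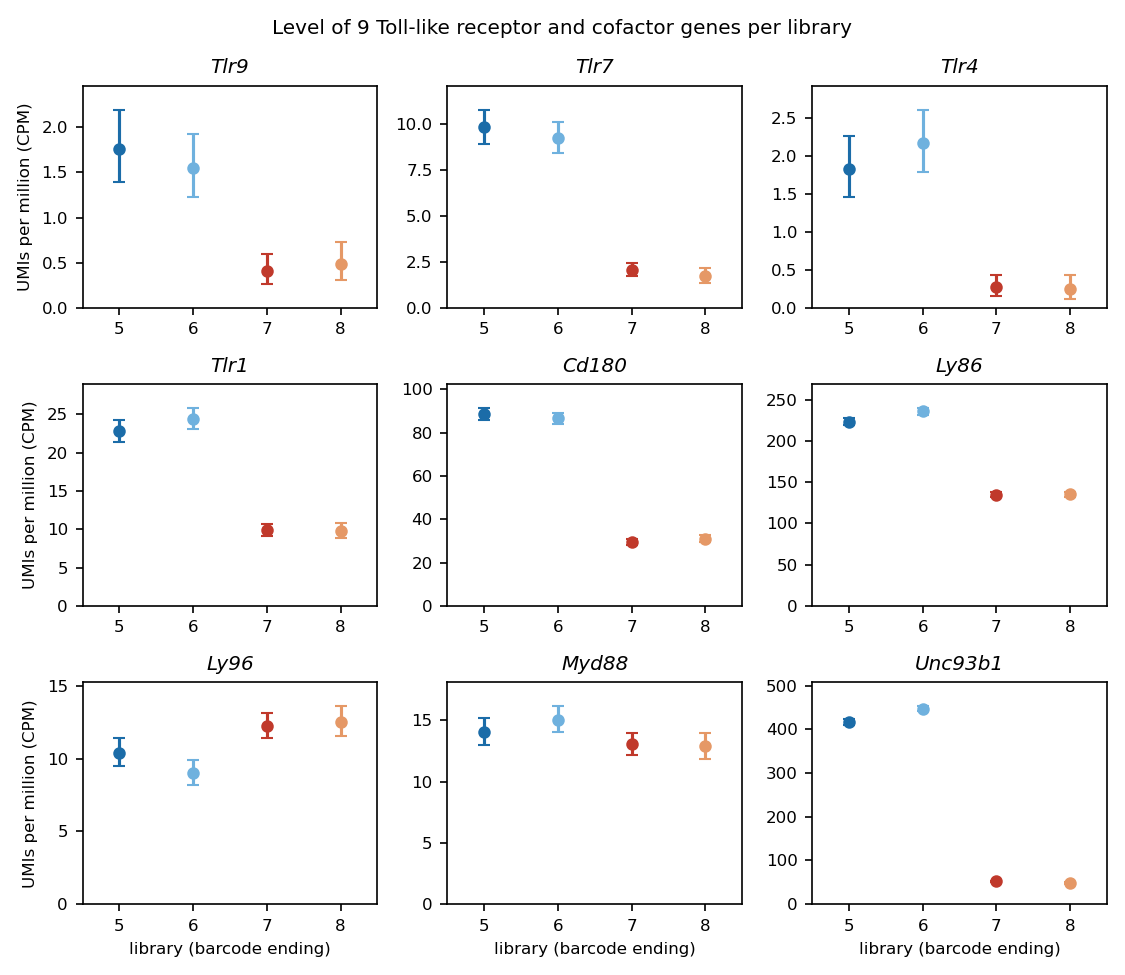
Level of 9 genes in each library. The horizontal axis gives the library and the vertical axis the level in CPM, starting at 0 and scaled for each gene. Points are the library's value and bars its exact Poisson 95% interval. Libraries 5 and 6 lie above libraries 7 and 8 for Tlr9, Tlr7, Tlr4, Tlr1, Cd180, Ly86, and Unc93b1, while Ly96 is higher in libraries 7 and 8 (12.3 and 12.5 CPM) and Myd88 is nearly level. Of all genes, 39.6% were lower in library 7 and in 8 than in 5 and in 6.

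Past 2-fold means here an absolute log2 ratio of at least 1 between the CPM of 2 libraries, and 9 of the 10 members, all but Cd14, had the 200 UMIs over the 4 libraries asked of every gene. Tlr4 and Tlr9 reached 200 UMIs mostly through libraries 5 and 6, where they were high. Their place in the counts and the median below is therefore not independent of that difference. In the pair of libraries 5 and 7, 6 of the 9 were past 2-fold, where 29.9% of all 10457 genes were. The count was also 6 of 9 in the pairs 5 and 8, 6 and 7, and 6 and 8, where 29.1%, 29.6%, and 28.8% of all genes were past 2-fold. In the pairs 5 and 6 and 7 and 8 it was 0 of 9, beside 0.210% and 0.612% of all genes. The same 6 genes, Unc93b1, Tlr4, Tlr7, Tlr9, Cd180, and Tlr1, were lower past 2-fold in each of the 4 pairs, against 13.0% of all genes, and no member was higher past 2-fold in each of them, against 12.2% of all genes. The median log2 ratio of the 9 members was -1.53, beside 0.13 for all genes. No test was made of these counts, since each library is 1 value and the genes were chosen with results of these data known.

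**Figure D2:**
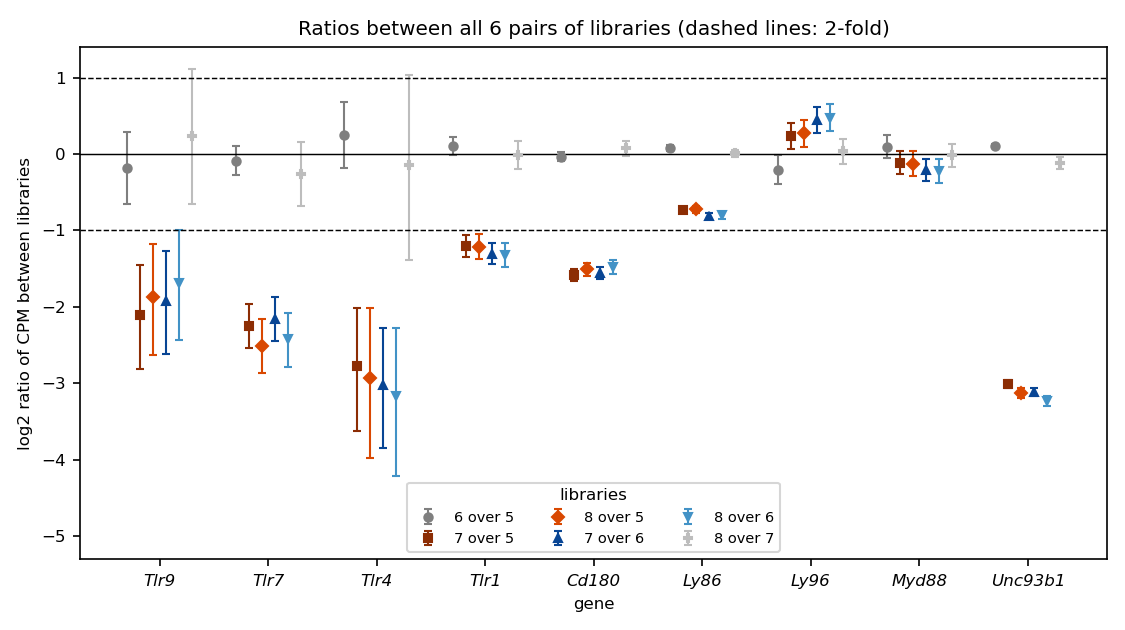
Log2 ratio of CPM for 9 genes in all 6 pairs of libraries. The horizontal axis gives the gene, the vertical axis the log2 ratio, symbols stand for the pairs, bars are exact 95% intervals for counting error, and the dashed lines mark 2-fold. The pairs 6 over 5 and 8 over 7 lie near 0, and in the other 4 pairs Unc93b1, Tlr4, Tlr7, Tlr9, Cd180, and Tlr1 lie below -1.

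Other measures moved with this pattern. Besides the mitochondrial share, Il10 was at 13.7 and 11.1 CPM in libraries 5 and 6 and at 255 and 253 CPM in libraries 7 and 8. All 8 B cell markers were lower in libraries 7 and 8, 6 of them past 2-fold in each of the 4 pairs, with a median log2 ratio of -1.58. Among them Ms4a1, the gene of CD20, was at 1499, 1510, 32.0, and 37.0 CPM, and Cd74 at 6858, 7135, 5915, and 5831 CPM. The median of the TLR genes, -1.53, was thus close to that of the B cell markers. The sums of the plasma cell, dividing cell, and dendritic cell lists were also lower in libraries 7 and 8. That of the S phase list was higher (247, 263, 439, and 422 CPM). In it Mcm3, Mcm5, Mcm6, and Pcna were higher, while Rrm2 (39.0, 44.0, 29.9, and 31.6 CPM) and Tyms (67.9, 69.0, 56.6, and 59.1 CPM) were lower. Of the dividing cell list, Mki67, Top2a, Birc5, and Ube2c were lower in libraries 7 and 8, and Cdk1 (19.9, 22.5, 22.6, and 24.3 CPM) was not. The 7 plasma cell markers summed to 1614 and 1779 CPM in libraries 5 and 6 and to 390 and 339 CPM in libraries 7 and 8. Most of this was Mzb1, at 1441, 1548, 154, and 157 CPM. Derl3 was lower as well, and Jchain and Txndc5 did not follow the pairs. Xbp1 (84.7, 91.7, 112, and 107 CPM) and Sdc1 (0.201, 0.213, 7.45, and 6.15 CPM) were higher in libraries 7 and 8. The 5 dendritic cell markers, of which Siglech was at 0, summed to 4.39, 5.56, 0.440, and 0.394 CPM, mostly from Flt3 in libraries 5 and 6. The part of these measures in the result was not tested, and less of an mRNA per cell and a different make-up of the cells cannot be told apart from library totals alone.

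The share of cells with a UMI depends on depth, so each cell was thinned to 5000 UMIs, and 4038, 4600, 5388, and 3846 cells reached that number in libraries 5, 6, 7, and 8. Unc93b1 was seen in 86.0% and 88.6% of thinned cells in libraries 5 and 6 and in 21.3% and 19.4% in libraries 7 and 8, with Clopper-Pearson intervals of 84.9% to 87.1% in library 5 and 20.2% to 22.4% in library 7. Unthinned, the shares were 95.7%, 96.9%, 39.0%, and 36.2%. The lower level in libraries 7 and 8 was therefore seen as fewer cells with a UMI. The highest count in an unthinned cell was 42 and 52 in libraries 5 and 6 and 9 and 7 in libraries 7 and 8. A maximum depends on the depth of that cell and is no separate measure of the level.

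Ly86 was seen in 65.1%, 67.3%, 44.3%, and 44.6% of thinned cells and Cd180 in 32.7%, 33.1%, 12.4%, and 12.8%, against 83.8%, 85.3%, 65.7%, and 66.1% and 50.7%, 52.4%, 23.6%, and 24.2% of unthinned cells. Tlr1 was seen in 10.5%, 10.7%, 4.86%, and 4.45%, and Tlr7 in 4.71%, 4.41%, 0.891%, and 0.754% of thinned cells. The receptors of the agonists given to the cultures were seen in few cells, with Tlr9 in 0.892%, 0.913%, 0.204%, and 0.182% and Tlr4 in 0.867%, 1.09%, 0.148%, and 0.104% of thinned cells. Ly96 was in 5.13%, 4.30%, 5.85%, and 5.88% and Myd88 in 6.44%, 7.28%, 6.14%, and 6.45%. With 1 UMI in nearly all positive cells, the shares of Tlr9, Tlr7, and Tlr4 are limits set by capture and not shares of cells that express the receptor. No cluster of a cell type that should lack the genes was present to give the level of free RNA.

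A UMI of any of the 4 receptors Tlr1, Tlr4, Tlr7, and Tlr9 was found in 16.1% and 16.4% of thinned cells in libraries 5 and 6 and in 6.09% and 5.46% in libraries 7 and 8, and at most 36 cells in a library had UMIs of exactly 2 of them. How often 2 genes were seen in the same cell was set beside the product of their shares. In library 5, 29 of 36 thinned cells with Tlr9 had an Unc93b1 UMI, where the product gives 31.0 cells. Cd180 and Ly86 were both seen in 879 cells of library 5 and 312 cells of library 7, where the products give 858 and 297 cells. Unc93b1 in library 7 was seen above the product with Cd180, in 178 cells against 143, and with Tlr1, in 70 cells against 55.8. In library 8 these pairs were nearer the product, in 106 cells against 95.9 and in 37 cells against 33.2. In library 5 the same pairs were seen in 1157 cells against 1134 and in 369 cells against 366. Tlr7 and Unc93b1 were seen together in 9 cells of library 7, where the product gives 10.2 cells. Tlr4 and Ly96 were seen together in 2, 3, 2, and 1 cells of libraries 5, 6, 7, and 8, where the products give 1.79, 2.15, 0.468, and 0.235 cells, counts too small to compare.

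Clusters were formed from the transcriptome without the members and without the genes of the lists used here, which gave 7 clusters. Clusters 1, 4, and 5 held cells of libraries 5 and 6 almost without exception, and clusters 2, 3, and 6 those of libraries 7 and 8. Cluster 1 (7055 cells) was led by Ltb and Cd2, cluster 4 (870 cells) by the mitotic genes Nusap1, Ccnb2, and Mki67, and cluster 5 (824 cells) by the chemokine genes Ccl3 and Ccl4. Cluster 2 (6957 cells) was led by Hbb-bt, Cd86, and Il10, cluster 3 (2032 cells) by the replication genes Ung, Mcm3, and Mcm5, and cluster 6 (524 cells) by the mitotic genes Cdk1, Ube2c, and Ccna2. Cluster 7 (272 cells) was led by Jchain and Igkc, genes of antibody-secreting cells, and was the only cluster with over 50 cells from each side (69, 108, and 59 cells of libraries 5, 6, and 7).

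Clusters within a library were compared next. Only clusters with at least 50 cells of a library were used, and the highest was at least 2-fold over the lowest for 3 of 7 members with 200 UMIs in library 5, beside 32.5% of genes not used for clustering. The count was 4 of 7 in library 6 (28.9% of genes), 2 of 6 in library 7 (28.5%), and 0 of 6 in library 8 (3.30%), whose 36 cells of cluster 7 were too few to enter. The members were Tlr1, Tlr7, and Cd180 in library 5, these and Ly96 in library 6, and Ly86 and Ly96 in library 7, and cluster 7 was at one end of each of these 9 spans. That end rested on 9 and 12 UMIs of Tlr1, 12 and 15 of Tlr7, and 32 and 46 of Cd180 in libraries 5 and 6. For Ly96 it was 13 and 21 UMIs in libraries 6 and 7, and for Ly86 40 UMIs in library 7. No interval is given for these spans. Without clusters under 100 cells, the count was 0 in libraries 5 and 7, and the share of all genes without those clusters is not given here.

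Unc93b1 was at 451 and 489 CPM in cluster 1 of libraries 5 and 6, at 337 and 344 CPM in the mitotic cluster 4, and at 348 and 369 CPM in cluster 5. In clusters 2, 3, and 6 of libraries 7 and 8 it lay between 34.9 and 54.8 CPM. The lowest value in a large cluster of libraries 5 and 6 was thus above the highest in libraries 7 and 8, whichever clusters were set side by side. In the mitotic clusters its CPM was lower than in the largest cluster of the same library, by 1.34- and 1.42-fold in libraries 5 and 6 and by 1.26- and 1.36-fold in libraries 7 and 8. The median cell held 16805 UMIs in cluster 4 against 8203 in cluster 1, and 16231 in cluster 6 against 9458 in cluster 2. CPM is a share of UMIs, so a lower CPM in the mitotic clusters does not mean fewer UMIs of the gene per cell.

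Cd180 and Ly96 had another order. In libraries 7 and 8, Cd180 was at 25.8 and 26.5 CPM in cluster 2, at 33.5 and 35.9 CPM in the replicating cluster 3, and at 43.0 and 47.2 CPM in the mitotic cluster 6, which was 1.67- and 1.78-fold over cluster 2. Ly96 was at 20.1 and 19.9 CPM in cluster 6, or 1.80- and 1.70-fold over cluster 2. In libraries 5 and 6 the mitotic cluster 4 did not show this, since Cd180 was 1.24- and 1.13-fold lower there than in cluster 1 and Ly96 was at 8.85 and 9.41 CPM against 10.7 and 9.39 CPM. Tlr7 was 1.72- and 1.98-fold lower in CPM in cluster 4 than in cluster 1, whose cells held fewer UMIs in all. Tlr9 and Tlr4 had too few UMIs per cluster, 0 to 23 outside the largest clusters, for a comparison. Clusters were not formed independently of the libraries, so a cluster against another is a description and no test.

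**Figure D3:**
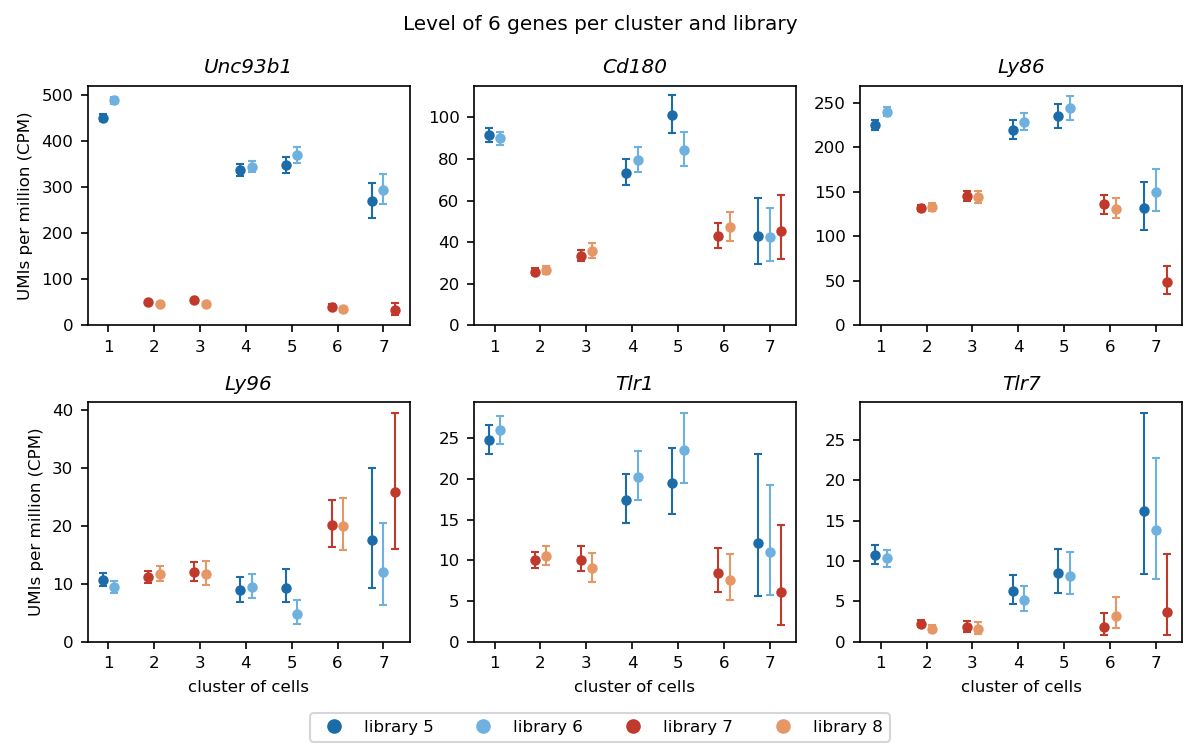
Level of 6 genes per cluster and library. The horizontal axis gives the cluster of cells, the vertical axis the level in CPM from 0, colors stand for the library, bars are exact Poisson 95% intervals, and combinations with fewer than 50 cells are left out. Unc93b1 lies at 270.0 CPM or more in every cluster of libraries 5 and 6 and at 54.8 CPM or less in every cluster of libraries 7 and 8, while Cd180 has nearly the same level in cluster 7 of libraries 5, 6, and 7.

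Cluster 7 allowed libraries to be compared in cells that were grouped together. In it Unc93b1 was at 270.0, 294, and 34.5 CPM in libraries 5, 6, and 7, and the level in library 7 was 7.82- and 8.52-fold lower, close to the difference over all cells. Ly86 was at 132, 150, and 49.3 CPM, 2.68- and 3.05-fold lower in library 7, a wider difference than the 1.66- and 1.75-fold over all cells. Cd180 did not show the difference, at 43.2, 42.4, and 45.6 CPM, with log2 ratios of 0.08 (-0.64 to 0.81) for library 7 over 5 and 0.10 (-0.56 to 0.76) for library 7 over 6. Relative to the largest cluster of its library, Cd180 in cluster 7 was 2.11- and 2.12-fold lower in libraries 5 and 6 and 1.77-fold higher in library 7. Ly96 was at 17.6, 12, and 25.9 CPM from 13 to 21 UMIs, and Tlr7 at 16.2, 13.8, and 3.70 CPM from 12, 15, and 3 UMIs. Of the 1360 genes with enough UMIs in cluster 7, 13.3% and 13.8% were lower past 2-fold in library 7 than in libraries 5 and 6.

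The other genes of the pathway were described by 4 lists. Of 8 other TLR genes only Tlr2 and Tlr6 reached 200 UMIs, and Tlr5, Tlr8, Tlr11, and Tlr13 had no UMI in any library. Tlr2, which pairs with TLR1 and TLR6, was at 6.22, 6.33, 4.98, and 4.14 CPM and stayed under 2-fold in all pairs. Of the 2 genes with 200 UMIs, Tlr6, named after its values were seen, was the 1 lower past 2-fold in each of the 4 pairs, at 1.32, 1.67, 0.550, and 0.569 CPM. Of all genes, 13.0% were lower in this way. Tlr6 held 59, 86, 35, and 26 UMIs in libraries 5, 6, 7, and 8, so it reached 200 UMIs mostly through libraries 5 and 6, where it was high. The RNA sensor Tlr3, at 33, 39, 6, and 4 UMIs, and Tlr12, at 15 UMIs or fewer, were also lower past 2-fold in each of these pairs. Their ratios rest on few UMIs.

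Of 14 genes for receptor trafficking and processing, 11 reached 200 UMIs, and 1 was lower and 1 higher past 2-fold in each of the 4 pairs, with a median log2 ratio of -0.31. That is 9.09% of the list each way, near the 13.0% of all genes that were lower and the 12.2% that were higher. The lower one was Slc15a4, an endolysosomal transporter needed for TLR7 and TLR9 signaling, at 27.7, 29.3, 9.30, and 8.5 CPM. The higher one was Ctsb, a lysosomal protease, at 56.8, 57.7, 155, and 153 CPM. Nrros, a negative regulator of TLRs, was at 43.5, 45.8, 23.1, and 23.5 CPM, and Ctsl, a protease that cuts TLR9 in the endosome, at 14.9, 12.9, 7.68, and 6.0 CPM. The chaperone genes for TLR folding lay on both sides, with Hsp90b1 at 366, 402, 588, and 558 CPM and Cnpy3 at 41.1, 40.4, 34.4, and 31.6 CPM.

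All 29 adaptor and kinase genes reached 200 UMIs, and 3 were lower and 0 higher past 2-fold in each of the 4 pairs, with a median of 0.06. The 3 genes are 10.3% of the list, near the 13.0% of all genes that were lower. The 3 were Irf7, a factor for interferon genes downstream of TLR7 and TLR9, at 10.6, 10.8, 2.62, and 2.04 CPM, Btk, a kinase of the B cell receptor pathway, at 71.8, 65.0, 23.8, and 23.0 CPM, and Ticam2, the adaptor that links TLR4 to TRIF, at 9.46, 7.92, 1.18, and 1.45 CPM. Ticam2 was named after its values were seen. Irf5 was at 47.7, 45.8, 25.4, and 24.1 CPM and Irf3 at 41.1, 41.3, 68.6, and 67.5 CPM. Genes of the steps next to MYD88 lay within 2-fold, with Irak4 at 15.2, 16.1, 10.4, and 9.90 CPM, Irak1 at 29.8, 30.9, 37.3, and 35.3 CPM, and Traf6 at 5.84, 6.14, 7.42, and 6.96 CPM.

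Of 12 inhibitor genes 11 reached 200 UMIs, and 1 was lower and 2 were higher past 2-fold in each of the 4 pairs, with a median of 0.38. These are 9.09% and 18.2% of the list, beside 13.0% and 12.2% of all genes. The higher ones were Tnfaip3, the gene of the NF-κB inhibitor A20, at 15.0, 14.0, 40.2, and 35.0 CPM, and Tnip1, the gene of a partner of A20, at 38.7, 37.6, 89.6, and 89.4 CPM. The lower one was Sigirr, an inhibitory receptor, at 18.7, 18, 7.56, and 7.40 CPM. Tnip2 was at 6.47, 6.58, 12.7, and 13.8 CPM. The medians of the 4 lists lay between -0.94, from only 2 genes, and 0.38, and all 4 were closer to the median of all genes than the median of the members was.

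**Figure D4:**
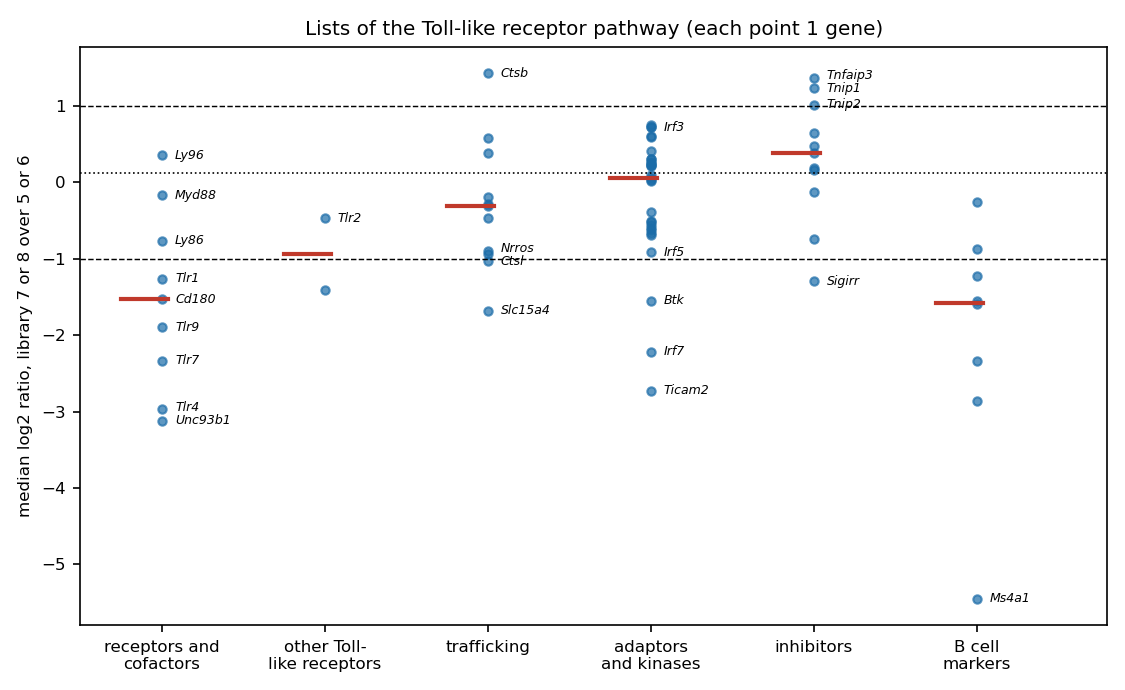
Genes of the TLR pathway by list. Each point is 1 gene with at least 200 UMIs, the vertical axis is the median of its 4 log2 ratios of library 7 or 8 over library 5 or 6, red bars are list medians, the dotted line is the median of all genes, and the dashed lines mark 2-fold. The receptors and cofactors have a median of -1.53 and the B cell markers one of -1.58, whereas adaptors and kinases lie around 0.06.

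The genes most like each member over the 15 combinations of cluster and library were found by the Pearson correlation of log2 CPM among 8282 genes. For Unc93b1 it was Mrpl30 (r = 0.969), for Cd180 Ncf4 (0.958), for Ly86 Tespa1 (0.991), for Tlr1 Nudt7 (0.975), and for Tlr7 Rpl10 (0.916). For Ly96 it was Dusp22 (0.948) and for Myd88 Ctso (0.94). Each point was centered on the mean of its library, so the correlations describe differences between clusters within libraries. These 15 points share libraries and clusters, and each r is the largest found among the 8282 genes, so no p-value is given. Tlr1, Tlr7, Ly96, and Myd88 also rest on few UMIs in cluster 7. In libraries 5, 6, and 7 these were 9, 12, and 5 for Tlr1, 12, 15, and 3 for Tlr7, 13, 13, and 21 for Ly96, and 7, 12, and 10 for Myd88. For Tlr4 and Tlr9, whose values rest on few UMIs, no partner is named.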

How the data were processed

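The scRNA-Seq data were deposited as counts: the authors gave whole UMI counts per gene and column, 1 matrix for the series. Per the submitters' processing notes and the paper's methods, reads were demultiplexed with bcl2fastq, aligned to mm10 (Ensembl 93 genes) and counted with Cell Ranger (version 3.1.0), and libraries were combined with its aggr step, which evens out depth. The mode of aggr is not given in the sources used here. The matrix had 35989 columns and the shorter barcode list was placed on its last columns. The median count per column was 3725 in the 400 columns before and 8727 in the 400 columns after column 16069, where library 5 then starts. The 16069 columns before were not used, and no other columns of per-sample values were present (0). Nothing says that replicates came from separate animals.

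Cells with at least 1000 genes and under 10% mitochondrial UMIs were kept, and UMIs were summed per library and divided by its total (CPM). No cell was removed as a doublet, and cells over 25000 UMIs were left out as an alternative. With SciPy (version 1.17.1), 95% intervals were made for CPM (exact Poisson), for ratios of CPM (exact, given the sum of both counts), and for shares of cells (Clopper-Pearson). These were checked on simulated data. Clusters came from Seurat (version 5.3.0, R version 4.3.3) with 2000 variable genes, of which 1967 were used after the listed genes were removed, 20 principal components, 20 neighbors, and a resolution of 0.3. The likeness of genes used log2(CPM + 1), centered on each library's mean, and genes with at least 1000 UMIs. Positions are those of GENCODE vM21 on GRCm38. Scaling with edgeR (version 4.0.16) and DESeq2 (version 1.42.0) served as alternatives only, since no test between samples was possible.

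The members and lists were chosen with earlier results of these data known. All members are named. Of each pathway list, up to 4 genes with at least 1000 UMIs and the largest median ratio over the 6 pairs are named; Tlr3, Tlr6, Tlr12, Hsp90b1, Cnpy3, Ticam2, Irak1, Irak4, and Traf6 were added after their values were seen. Lists of plasma cell, dividing cell, S phase, dendritic cell, and red cell markers were also summed. Their summed CPM in libraries 5, 6, 7, and 8 was 1614, 1779, 390 and 339 for plasma cells, 268, 303, 177, and 197 for dividing cells, 247, 263, 439, and 422 for S phase, 4.39, 5.56, 0.440, and 0.394 for dendritic cells, and 0.0223, 0, 0.660, and 0.416 for red cells. The red cell list held Hbb-bs, Hba-a1, and Hba-a2 and left out Hbb-bt, the gene named first for cluster 2. Protein sequences and the sequence of the CpG oligonucleotide were not used here.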

Additional observations from a re-analysis of the deposited data

How the results depend on the processing

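The log2 ratios of the 9 members were recomputed under 11 settings of scaling, cell filter, and thinning. Of the 260 values that could be had for the 24 ratios past 2-fold, 256 kept direction and stayed past 2-fold, 4 kept direction only, all of Tlr1 with cells under 5% mitochondrial UMIs, and 0 changed direction. Of 328 values for ratios under 2-fold, 0 went past it. Scaling by total UMIs left the median gene 0.17 higher in library 7 than in library 5, and TMM scaling left it at -0.01. With cells under 5% mitochondrial UMIs, the count of members past 2-fold was 3 instead of 6 for libraries 5 and 7 and for libraries 5 and 8. Library 5 kept 143 cells with 0 UMIs of Tlr4 and 0 of Tlr9, so these genes had no ratio and could not be counted, and Tlr1 was under 2-fold. With a minimum of 2000 UMIs per gene the count was 3 in the pairs 5 and 7, 5 and 8, 6 and 7, and 6 and 8, since fewer members were counted. The shares of all genes past 2-fold under these 2 settings are not given here. UMIs per cell without scaling was an alternative chosen after seeing the data. The number of members spanning 2-fold between clusters went from 3 to 0 in library 5 and from 4 to 0 in library 6 at a resolution of 0.1, from 4 to 2 in library 6 with 30 principal components, and to 0 in libraries 5 and 7 where clusters needed 100 cells, which removes cluster 7. The cause was not tested for the first 2 of these settings.

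No paired analysis was possible because the barcodes carry no sample name or replicate number. Leaving out a replicate was not applicable, since each pair of libraries is its own value. Tlr4, Tlr9, and Cd14 are limited by counting: 11 to 112, 22 to 80, and 0 to 1 UMIs per library.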

Other observations

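Flt3, the receptor of the dendritic cell growth factor and a gene of the dendritic cell marker list, was at 4.17, 5.36, 0.189, and 0.241 CPM in libraries 5, 6, 7, and 8, from 187, 277, 12, and 11 UMIs, while the other 4 genes of that list had at most 9 UMIs in a library. Itgam, the gene of CD11b, was at 1.83, 2.44, 0.676, and 0.416 CPM, and Cd68, a lysosomal protein of macrophages, at 1.72, 1.76, 2.44, and 3.09 CPM, so that 2 markers of the macrophage list had opposite orders over the libraries while the list's sum stayed between 3.14 and 4.74 CPM. These values rest on libraries that the labels put in no group, and no explanation was tested.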
